A study of Homo sapiens with 10 samples.

Results

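The genes described here encode the subunits of the mitochondrial respiratory chain and ATP synthase that lie in the nuclear genome. This group of genes was chosen with earlier results of these data known, and membership in it went by gene symbol. It took in all probe sets whose single symbol on the array begins with NDUFA, NDUFB, NDUFC, NDUFS, NDUFV, UQCR, ATP5F1, ATP5M or ATP5P. Single symbols that begin with COX and a digit from 4 to 8 were also taken, as were SDHA, SDHB, SDHC, SDHD and CYC1. This gave 73 of the 11963 genes with such a probe set, and 106 probe sets. Complex I had 28 genes, complex II 3 (SDHA, SDHC and SDHD), complex III 7, complex IV 13 and complex V, the ATP synthase, 15. The symbols also took in 5 complex I assembly factors (NDUFAF names), which are not subunits, the pseudogene ATP5MC2P1 and the antisense RNA NDUFB2-AS1.

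RNA came from the human melanoma line MDA-MB-435 and was hybridised to 10 Affymetrix hgu133a arrays, 2 for each of 5 groups. The groups were cells transduced with ITGB4 to raise this integrin stably, cells treated with HGF for 1, 6 or 24 h, and untreated cells. The arrays of a group are described by the study as biological duplicates. The descriptions of the transduced cells also carry the word Mock, and cells transduced without ITGB4 form no group, so transduction and ITGB4 cannot be told apart. All groups share 1 cell line, and the HGF dose, the vector and the number of clones are not given in the sources used here. HGF is the ligand of the receptor tyrosine kinase MET and sets off proliferation and motility.

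The chain passes electrons from NADH through complex I, or from succinate through complex II, to ubiquinone, then through complex III and cytochrome c to complex IV, which reduces oxygen. Complexes I, III and IV pump protons out of the mitochondrial matrix, and complex V makes ATP as the protons flow back. Except for complex II, each complex joins subunits of nuclear and of mitochondrial origin, and only genes of nuclear origin are treated here. Nuclear factors such as NRF1, YY1 and the ETS protein GABPA with its partner GABPB1 are known to bind promoters of many of these genes, so that their transcripts are often regulated together.

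Promoter sequences, from 250 bases before to 50 after the start of the gene, were taken from RefSeq (build GRCh38.p14) and matched 62 of the 73 genes. The NRF1 letters GCATGCGC, searched on both strands, stood in 14 of these 62 promoters (22.6%), against 3.27% of all 27305 promoters of this length. The ETS letters CCGGAAGT stood in 8 (12.9%, against 4.44%) and the YY1 letters AAGATGGCG in 7 (11.3%, against 1.85%). The NRF1 letters were found in 5 of 27 promoters of complex I, 1 of 2 of complex II, 2 of 11 of complex IV, 4 of 12 of complex V and 2 of 5 of the assembly factors. None of the matched promoters of complex III held them. The 40 bases around the match are shown for 1 gene of each of complexes I, II, IV and V, the first by name, with the match in capitals. Where 10 bases are in capitals, the match on one strand overlaps the match on the other.
NDUFA6 (complex I, chr22:42090915-42090954, minus strand): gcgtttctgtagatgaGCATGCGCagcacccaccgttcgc
SDHD (complex II, chr11:112086747-112086786, plus strand): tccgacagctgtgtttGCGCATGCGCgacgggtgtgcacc
COX5B (complex IV, chr2:97645910-97645949, plus strand): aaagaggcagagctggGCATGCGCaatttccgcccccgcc
ATP5F1C (complex V, chr10:7788139-7788178, plus strand): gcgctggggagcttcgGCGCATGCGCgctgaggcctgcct
Whole promoters are shown for the member with the largest change and for the assembly factor that changed in 2 comparisons. The window taken for NDUFA5 held none of the 3 motifs on either strand. That of NDUFAF4 held the NRF1 letters on the strand opposite to the gene, beginning 6 bases downstream of its start. A single window per gene was searched, so any other start of a gene was not covered. A match in these letters is a description of the sequence, not a bound site.
NDUFA5 (chr7:123601602-123601901, minus strand): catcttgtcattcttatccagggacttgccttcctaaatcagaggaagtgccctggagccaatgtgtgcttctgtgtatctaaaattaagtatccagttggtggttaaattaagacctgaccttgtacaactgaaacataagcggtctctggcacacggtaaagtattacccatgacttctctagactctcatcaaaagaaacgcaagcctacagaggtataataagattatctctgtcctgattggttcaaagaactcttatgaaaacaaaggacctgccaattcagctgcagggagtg
NDUFAF4 (chr6:96897842-96898141, minus strand): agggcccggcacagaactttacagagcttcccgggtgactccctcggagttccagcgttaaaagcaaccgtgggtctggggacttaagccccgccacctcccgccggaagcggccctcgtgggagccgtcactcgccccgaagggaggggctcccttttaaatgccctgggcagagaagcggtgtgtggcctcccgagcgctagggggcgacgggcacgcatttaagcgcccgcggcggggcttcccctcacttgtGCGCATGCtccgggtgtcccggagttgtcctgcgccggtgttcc

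The authors deposited RMA values in log2 units, so a difference of 1 is a doubling of signal. Tests were limited to probe sets that reached at least 7.31 on 2 or more arrays. Of the 73 genes, 67 were kept, with 93 of the 106 probe sets. The muscle-type subunits COX6A2 (6.29 to 7.01 over all arrays) and COX7A1 (5.76 to 6.35) were not kept, nor were NDUFAF5, NDUFAF7, ATP5MC2P1 and NDUFB2-AS1. COX6A1 and COX7A2, the forms found in most tissues, were kept, with group means from 12.54 to 12.79 and from 11.75 to 11.97. In 54 of the 106 probe sets the name ends in _s_at or _x_at, which marks probes that can bind several transcripts, pseudogene copies among them. Another 9 probe sets that carry a member symbol together with others were left out.

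On the arrays as a whole, the 3 kept ITGB4 probe sets exceeded 10 on both arrays of transduced cells and stayed under 7 on the rest. Melanocyte markers were present, with 10 of the 11 on the array kept and SLC45A2 not kept. Of epithelial markers 3 of 12 were kept and of fibroblast markers 4 of 10. The log2 values of all 11 melanocyte markers on the array, kept or not, summed to between 116.3 and 120.2. In the same way the 12 epithelial markers summed to 72.4 to 76.1 and the 10 fibroblast markers to 64.6 to 66.8. The lists differ in length, so their sums are not a like measure. The 3' minus 5' signal lay between -0.57 and -0.09 for ACTB and between -0.21 and -0.01 for GAPDH. In RNA from whole cultures, fewer cells of a type and less RNA per cell cannot be told apart.

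The respiratory chain genes varied less between these arrays than the probe sets kept overall. Their median SD within groups was 0.102, against 0.144 for all kept probe sets, and the median range over the 10 arrays was 0.425, against 0.625. The range stayed under 1 in 90 of 93 probe sets (96.8%), against 83.2% of all kept probe sets. The 3 exceptions were NDUFA5 (1.93), SDHD (1.21) and NDUFAF4 (1.08). Complex V varied least, with a median range of 0.324 and a highest of 0.628, and complex I had a median of 0.523. These are descriptions of spread, for which no test was made, and the probe sets were not matched on signal.

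For each comparison the 95% interval of a difference shows what size of change the arrays still allow. With HGF for 1 h, 81 of 93 member intervals (87.1%) lay wholly inside a change of 1.5-fold either way, against 61.9% of all kept probe sets. At 6 h this held for 87 (93.5%, against 62.5%), at 24 h for 89 (95.7%, against 73.8%) and in transduced cells for 86 (92.5%, against 80.7%). For most members a change beyond 1.5-fold was therefore outside the interval, and not only short of the threshold of the test.

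**Figure D1:**
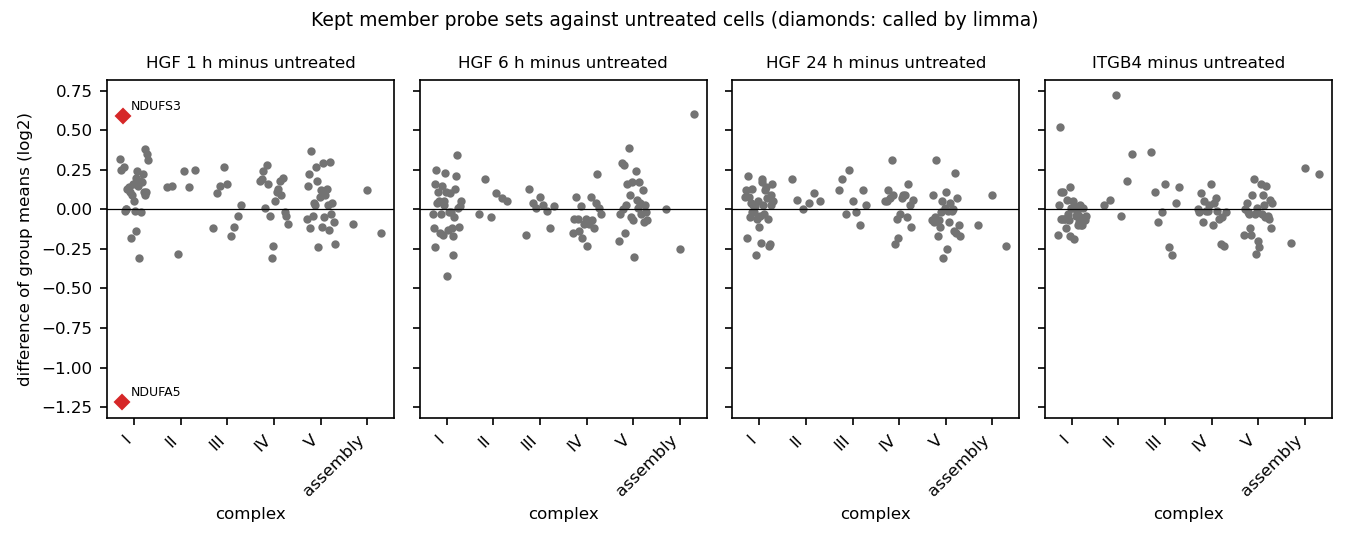
Difference of group means on the log2 scale (vertical axis) for each of the 93 kept probe sets, by complex (horizontal axis), in the 4 comparisons with untreated cells. Each point is 1 probe set, and diamonds mark the 2 called by limma, NDUFS3 at 0.59 and NDUFA5 at -1.22 after 1 h. Most points lie close to 0 in every panel.

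After 1 h with HGF, 2 members changed, both in complex I and in opposite directions. NDUFA5, an accessory subunit of the peripheral arm that reaches into the matrix, fell, and NDUFS3, a core subunit of the same arm, rose. This was 1 of 93 probe sets called higher, against 0.592% of all kept probe sets, and 1 called lower, against 5.08%. In all, 2.15% of member probe sets were called, against 5.67%. No gene of complexes II to V or of the assembly factors was called by limma at an adjusted p under 0.05, and 6 member probe sets were higher and 3 lower at an unadjusted p under 0.05, against 11.0% and 15.6% of all kept probe sets.

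NDUFA5 (201304_at) had log2 values of 6.29 and 6.00 after 1 h with HGF, against 7.34 and 7.41 in untreated cells. Both 1 h arrays lay below every other array of the series, the lowest of which had 7.02. The difference was -1.22 (SE 0.15, limma adjusted p = 0.0082), which is 0.428 of the untreated signal. Since the 1 h mean of 6.15 ± 0.21 (SD, n = 2) is under 7.31, the size is not exact. The other probe set of the gene, 215850_s_at, had means between 4.03 and 4.20 in the 5 groups and was not kept, so the change rests on 1 probe set.

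NDUFS3 (201740_at) had 11.97 and 11.86 after 1 h, against 11.23 and 11.43 in untreated cells. These were the highest values of the gene on any array, and the groups did not overlap. The difference was 0.59 (SE 0.13, limma adjusted p = 0.0299), a ratio of 1.51. Both calls depended on single arrays. The adjusted p of NDUFA5 was 0.056 without untreated replicate 1, 0.112 without untreated replicate 2 and 0.0623 without HGF 1 h replicate 1, and that of NDUFS3 was 0.183, 0.144 and 0.178 without the same arrays and 0.0546 without either 6 h array. When any one of the first 3 of these arrays was left out, limma called no probe set at all at 1 h.

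**Figure D2:**
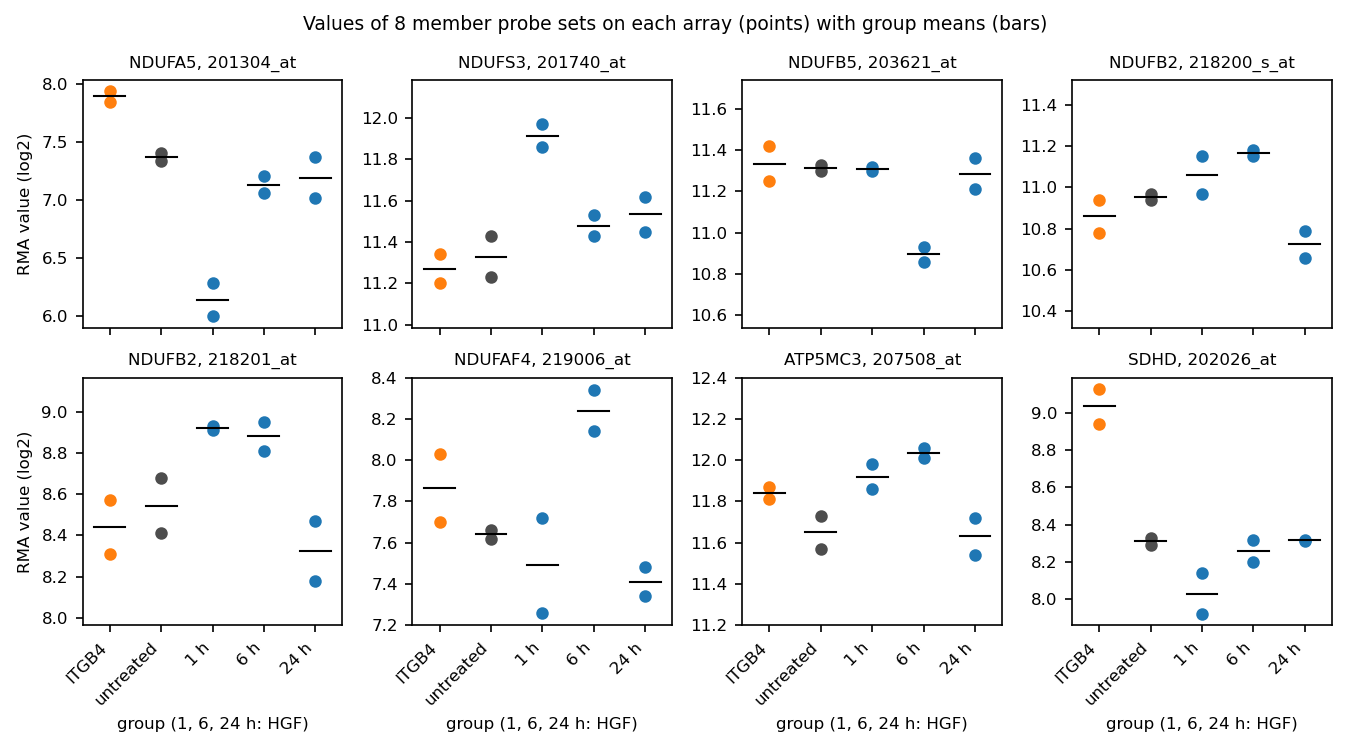
RMA values (log2, vertical axes, each panel with its own range) of 8 member probe sets on each array, with points for arrays and bars for the mean of the 2 arrays of a group. The panels run from transduced and untreated cells to 1, 6 and 24 h with HGF. NDUFA5 is lowest at 1 h (6.29 and 6.00), NDUFB5 is lowest at 6 h (10.93 and 10.86) and SDHD is highest in transduced cells (8.94 and 9.13).

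The largest differences of the other complexes at 1 h did not pass the test. In complex II the membrane anchor SDHD differed by -0.28 (adjusted p = 0.185) and its partner SDHC by 0.25 on 216591_s_at (adjusted p = 0.29). In complex III the core protein UQCRC1 differed by 0.27 (adjusted p = 0.235). In complex IV the small subunit COX6C differed by -0.31 (adjusted p = 0.177) and COX7A2L, known for its part in joining complexes III and IV, by 0.28 (adjusted p = 0.249). In complex V, ATP5F1D, the delta subunit of the central stalk, came nearest to a call, at 0.37 (SE 0.12, adjusted p = 0.0837), with 9.61 and 9.45 after 1 h, against 9.13 and 9.20 in untreated cells.

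Across the complexes the 1 h values leaned slightly upwards. The median difference over the 67 kept genes was 0.11, against 0.07 over all 6370 kept genes. It was 0.12 in complex I, 0.14 in II, 0.10 in III, 0.11 in IV, 0.04 in V and -0.09 in the assembly factors. Both 1 h arrays lay above both untreated arrays in 41 of 93 probe sets, against 34.0% of all kept probe sets, and below both in 12, against 25.9%. The lean in the median over all members was seen on 1 of the 2 arrays. This median, relative to the untreated mean, was 0.18 on HGF 1 h replicate 1 and 0.01 on replicate 2. All kept genes had medians of 0.08 and 0.03 on these arrays. On replicates 1 and 2 complex I had 0.20 and 0.05, complex II 0.13 and 0.14, and complex III 0.21 and -0.01. Complex IV had 0.21 and 0.01, complex V 0.10 and 0.02, and the assembly factors 0.08 and -0.02. Without replicate 1 the median difference of the members was 0.01, and after cyclic loess normalization of all 10 arrays it was 0.05. The median at 1 h was 0.11 for mitochondrial ribosomal proteins and 0.12 for the proteasome.

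**Figure D3:**
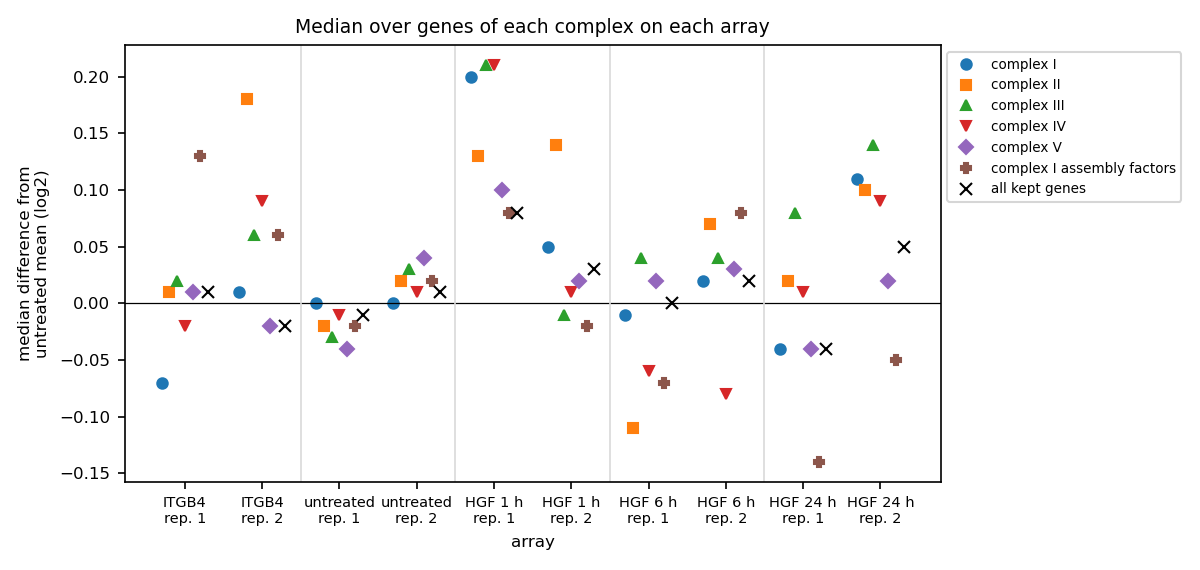
Median over the genes of each complex of the difference from the untreated mean (log2, vertical axis) by array (horizontal axis, 10 arrays), with all 6370 kept genes as crosses. HGF 1 h replicate 1 is highest for complexes I (0.20), III (0.21) and IV (0.21), while replicate 2 of the same group has 0.05, -0.01 and 0.01.

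After 6 h with HGF no member was called, although 3.90% of all kept probe sets were called higher and 2.33% lower at this time (6.22% in all). These shares rested on single arrays, since 19 to 66 probe sets were called at 6 h when an untreated or a 6 h array was left out, against 631 with all 10 arrays. At an unadjusted p under 0.05, 5 member probe sets were higher and 2 lower, against 13.6% and 9.69% of all kept probe sets. The median difference over member genes was 0.01, the same as over all kept genes, and between -0.06 (complex IV) and 0.03 (complex III) within the complexes. Both 6 h arrays lay above both untreated arrays in 20 of 93 probe sets, against 32.6%, and below both in 25, against 27.8%.

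The 3 members nearest to a call at 6 h were NDUFB5, NDUFAF4 and ATP5MC3. NDUFB5, an accessory subunit of the membrane arm of complex I, had 10.93 and 10.86 at 6 h, against 11.30 and 11.33 in untreated cells (difference -0.42, SE 0.12, adjusted p = 0.0574). NDUFAF4, which helps to build complex I, had 8.34 and 8.14, against 7.62 and 7.66 (0.60, SE 0.17, adjusted p = 0.0584). ATP5MC3, one of the genes for subunit c of the rotating ring of the ATP synthase, had 12.01 and 12.06, against 11.57 and 11.73 (0.39, SE 0.12, adjusted p = 0.0832). In each of the 3 the groups did not overlap. Complexes II, III and IV had no difference beyond 0.23 in size on any kept probe set. The largest were COX5B at -0.23 (202343_x_at, adjusted p = 0.341) and COX4I1 at 0.22 (213758_at, adjusted p = 0.257). This COX4I1 probe set was kept only through its 6 h arrays (7.38 and 7.40), with at most 7.20 on the others.

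After 24 h with HGF limma called no member and no probe set at all (0% of all kept probe sets). At an unadjusted p under 0.05, 1 member probe set was higher and 0 were lower, against 3.16% and 8.00% of all kept probe sets. The median difference over member genes was 0.03, against 0.01, and no member differed by more than 0.31. COX7A2L and ATP5F1D were at 0.31 (adjusted p = 0.458 and 0.403), ATP5MG, the g subunit of complex V, at -0.31 (208745_at, adjusted p = 0.523) and NDUFB3, an accessory subunit of complex I, at -0.29 (adjusted p = 0.498). Both 24 h arrays lay above both untreated arrays in 17 probe sets and below both in 16, against 21.9% and 24.2% of all kept probe sets.

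In cells transduced with ITGB4 no member was called, and of all kept probe sets 0.0493% were called higher and 0% lower. SDHD stood out by size. This subunit anchors complex II in the inner membrane and binds its heme together with SDHC. Its probe set 202026_at had 8.94 and 9.13 in transduced cells, against 8.29 and 8.33 in untreated cells. Both were above every other array, where the highest value was 8.33. The difference was 0.72 (SE 0.13, adjusted p = 0.0961 in limma, or 0.0275 when the 4 comparisons with untreated cells were adjusted together). Leaving out 1 array at a time gave differences from 0.63 to 0.82 and adjusted p-values from 0.123 to 0.694.

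The other probe set of SDHD, 215652_at, was not kept, with values from 4.69 to 5.13. Complex II as a whole did not share the SDHD difference, with SDHA at 0.03 and the 4 kept probe sets of SDHC between -0.04 and 0.35. NDUFA5 had 7.94 and 7.85 in transduced cells, against 7.34 and 7.41 in untreated cells (0.52, SE 0.15, adjusted p = 0.431). These were its 2 highest values in the series. In complex III, UQCRC2 was at 0.36 on 200883_at (adjusted p = 0.767) and at 0.04 on 212600_s_at. The median over member genes was -0.01, the same as over all kept genes. Both transduced arrays lay above both untreated arrays in 16 probe sets and below both in 20, against 17.0% and 17.7% of all kept probe sets. At an unadjusted p under 0.05, 4 member probe sets were higher and 1 lower, against 3.73% and 2.36%.

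Between the HGF times, 6 h against 1 h, 4 members were called, 3 of them subunits of complex I and 1 an assembly factor of it. NDUFA5 and the assembly factor NDUFAF4 rose, and NDUFS3 and NDUFB5 fell. The 2 probe sets called higher compare with 11.9% of all kept probe sets, and the 2 called lower with 6.42%. In all, 4.30% of members were called, against 18.3%. These comparisons share the 1 h and 6 h arrays with those against untreated cells. The share of all kept probe sets rested on single arrays, and fell most without HGF 1 h replicate 1 or without either 6 h array.

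NDUFA5 had 7.21 and 7.06 at 6 h, against 6.29 and 6.00 at 1 h (0.99, SE 0.15, limma adjusted p = 0.00418), and the call held whichever of the 10 arrays was left out. All 4 of these values lie under 7.31, the probe set having been kept through arrays of other groups, so the size of this difference is not exact. NDUFAF4 had 8.34 and 8.14, against 7.72 and 7.26 (0.75, SE 0.17, adjusted p = 0.0150). NDUFS3 had 11.43 and 11.53, against 11.97 and 11.86 (-0.43, SE 0.13, adjusted p = 0.0388). NDUFB5 had 10.93 and 10.86, against 11.32 and 11.30 (-0.41, SE 0.12, adjusted p = 0.0366). In all 4 the arrays of the groups did not overlap. NDUFAF4 was not called without HGF 1 h replicate 2, HGF 6 h replicate 1 or HGF 6 h replicate 2 (adjusted p = 0.0655, 0.105 and 0.0693), and NDUFS3 and NDUFB5 were not called without any one of the untreated, 1 h and 6 h arrays (0.0543 to 0.194 and 0.0618 to 0.195).

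Other complexes had no called member in this comparison. COX7A2L was at -0.41 (adjusted p = 0.0709). COX4I1, the largest nuclear subunit of complex IV, was at -0.33 on 200086_s_at (adjusted p = 0.0843), but at 0.24 on 213758_at. The latter was kept only through its 6 h arrays. The median over member genes was -0.08, against -0.03 for all kept genes, and 0.02 without HGF 1 h replicate 1. Both 6 h arrays lay below both 1 h arrays in 36 of 93 probe sets, against 33.9%, and above both in 14, against 32.5%. By unadjusted p 3 were higher and 10 lower, against 20.2% and 15.0%.

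From 6 to 24 h, 5 member probe sets of 4 genes were called. NDUFAF4, both probe sets of NDUFB2, an accessory subunit of the membrane arm of complex I, and ATP5MC3 fell at 24 h relative to 6 h, and NDUFB5 rose. The 4 called lower compare with 12.6% of all kept probe sets and the 1 called higher with 6.96%. In all, 5.38% of members were called, against 19.5%. The share of all kept probe sets again rested on single arrays, and fell most without either 6 h array or without HGF 24 h replicate 1.

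NDUFAF4 had 7.48 and 7.34 at 24 h, against 8.34 and 8.14 at 6 h (-0.83, SE 0.17, limma adjusted p = 0.00807). NDUFB2 had 10.66 and 10.79 on 218200_s_at, against 11.15 and 11.18 (-0.44, SE 0.12, adjusted p = 0.0282). It had 8.18 and 8.47 on 218201_at, against 8.81 and 8.95 (-0.56, SE 0.15, adjusted p = 0.0251). The 2 probe sets of NDUFB2 thus moved in the same direction by like amounts, and neither had arrays of the 2 times that overlapped.

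NDUFB5 had 11.36 and 11.21 at 24 h, against 10.93 and 10.86 at 6 h (0.39, SE 0.12, limma adjusted p = 0.0425). ATP5MC3 had 11.54 and 11.72 on 207508_at, against 12.01 and 12.06 (-0.41, SE 0.12, adjusted p = 0.0378). Its other kept probe set, 207507_s_at, was at -0.26 (adjusted p = 0.168), with 11.01 and 11.06, against 11.43 and 11.16. NDUFAF4 was not called without HGF 6 h replicate 1 (adjusted p = 0.0684), and NDUFB2 on either probe set without HGF 24 h replicate 1, HGF 6 h replicate 1 or HGF 6 h replicate 2 (0.0796 to 0.17). ATP5MC3 was not called without these 3 arrays or either untreated array (0.0572 to 0.196), and NDUFB5 without these 5 or HGF 24 h replicate 2 (0.0557 to 0.224).

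COX7A2L was closest to a call among the rest, at 0.45 (adjusted p = 0.0521), followed by ATP5MJ, a small membrane subunit of complex V, at -0.36 on 202279_at (adjusted p = 0.0586). The second probe set of ATP5MJ, 210532_s_at, had means of 12.09 at 24 h and 12.13 at 6 h. The median over member genes was 0.04, against 0.00 over all kept genes. Both 24 h arrays lay above both 6 h arrays in 22 probe sets and below both in 27, against 30.2% and 33.9%. By unadjusted p 3 were higher and 6 lower, against 13.9% and 20.2%.

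Between 24 h and 1 h no member was called, and 0.00986% of all kept probe sets were called higher and 0% lower. NDUFA5 had the largest difference, with 7.37 and 7.02 at 24 h, against 6.29 and 6.00 at 1 h (1.04, SE 0.15, limma adjusted p = 0.0609). NDUFB2 was at -0.60 on 218201_at (adjusted p = 0.129) and NDUFS3 at -0.38 (adjusted p = 0.223). The difference was negative in 51 of the 67 kept genes and in 25 of the 28 of complex I, with a median over all members of -0.06, against -0.04 for all kept genes, and 0.01 without HGF 1 h replicate 1. Both 24 h arrays lay above both 1 h arrays in 5 probe sets and below both in 24, against 16.9% and 22.2%. By unadjusted p 2 probe sets were higher and 6 lower, against 7.54% and 7.17%.

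**Figure D4:**
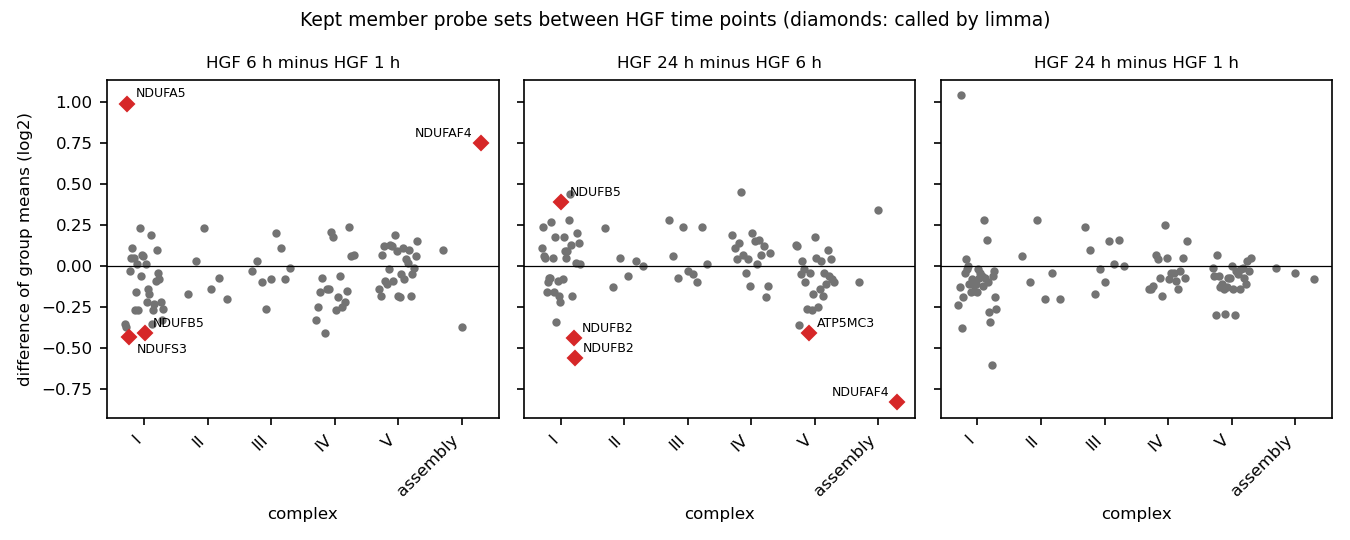
Difference of group means on the log2 scale (vertical axis) for each of the 93 kept member probe sets, by complex (horizontal axis), between HGF times, the later minus the earlier. Diamonds mark probe sets called by limma, 4 between 6 and 1 h, 5 between 24 and 6 h and 0 between 24 and 1 h. All called ones belong to complex I or its assembly factors except ATP5MC3.

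Probe sets of the same gene did not always run together, which bears on how far a difference on 1 of them can be read. In the 16 genes with several kept probe sets, all had the same sign in 10 genes at 1 h, 11 at 6 h, 11 at 24 h and 10 in transduced cells. The gap between the highest and lowest difference of a gene had a median between 0.08 and 0.19 over the 7 comparisons. It reached 0.57 in COX4I1 (6 h minus 1 h). This gap involves 213758_at, which was kept only through the 6 h arrays, where it was highest.

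The 3 genes for subunit c, whose mature protein is the same, can be set side by side at 6 h. ATP5MC1 was at 0.24 (adjusted p = 0.316), ATP5MC3 at 0.39 on 207508_at and 0.16 on 207507_s_at, and ATP5MC2 at -0.07 (208764_s_at, adjusted p = 0.841), and none was called. Differences between the 3 genes were not tested. Of the complex IV subunits with a muscle form, COX6A1 stayed between -0.06 and 0.19 from untreated cells in the 4 comparisons and COX7A2 between -0.22 and -0.01.

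Among genes that work with the chain, calls were found in several lists, whose counts are of genes. These lists were drawn up with earlier results of these data known. Their counts are descriptions, and cannot show that a list holds more or fewer calls than other genes. Of all kept probe sets, as given above, 0.592% were called higher and 5.08% lower at 1 h, 3.90% and 2.33% at 6 h, 11.9% and 6.42% at 6 h relative to 1 h, and 6.96% and 12.6% at 24 h relative to 6 h. At 1 h no probe set was called without either untreated array or without HGF 1 h replicate 1, and this holds for each 1 h call that follows. Cytochrome c itself, CYCS, which carries electrons from complex III to IV, had 10.93 and 10.80 after 1 h with HGF, against 11.46 and 11.41 in untreated cells (-0.57, limma adjusted p = 0.033). It rose at 6 h relative to 1 h (0.82, adjusted p = 0.00484) and fell at 24 h relative to 6 h (-0.60, adjusted p = 0.0108). ETFB, a subunit of the flavoprotein that hands on electrons from fatty acid oxidation, went the other way in both, with -0.68 at 6 h relative to 1 h (adjusted p = 0.00725) and 0.53 at 24 h relative to 6 h (adjusted p = 0.0155). Of the 4 kept genes of this list of 6 carriers CYCS was the only one called at 1 h, and against untreated cells none was called at 6 or 24 h.

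SCO2, a copper chaperone needed to assemble complex IV, had 9.42 and 9.50 at 6 h, against 8.16 and 7.97 in untreated cells (1.39, limma adjusted p = 0.00255). It was 1 of 11 kept genes of complex IV assembly and the only one called against untreated cells. SCO2 fell at 24 h relative to 6 h by 1.28 on the log2 scale (adjusted p = 0.00137). COX15, which makes heme A for complex IV, was on 1 of its 2 kept probe sets lower at 6 h than at 1 h (-0.56, adjusted p = 0.0171) and higher at 24 h than at 6 h (0.66, adjusted p = 0.00774). The 6 h call of SCO2 against untreated cells held whichever array was left out, with adjusted p up to 0.0498. Among 5 kept genes of complex III and V assembly 0 were called in any comparison with untreated cells. Of 3 kept genes of complex I and II assembly outside the NDUFAF names, TMEM126B fell at 1 h (-0.59, adjusted p = 0.0376).

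Among 13 kept regulators of respiratory genes and of mitochondrial DNA, 1 fell at 1 h and 2 rose at 6 h. TFAM, which packs and transcribes mitochondrial DNA, had 7.31 and 7.52 on 203177_x_at at 1 h, against 8.33 and 8.34 in untreated cells (-0.92, limma adjusted p = 0.0404), and its other 2 kept probe sets were not called there. GABPB1 rose at 6 h on 206173_x_at (1.01, adjusted p = 0.00473), which is 1 of its 2 kept probe sets. That probe set had 7.70 on both 6 h arrays and at most 7.03 on the others. It was kept only through the group where it was high, so the size of its difference is not exact. TWNK, the helicase of mitochondrial DNA, rose by 0.62 at 6 h (adjusted p = 0.0295). Of the 10 fits that left out 1 array, 8 called GABPB1 at 6 h and 6 called TWNK. At 6 h relative to 1 h, 3 regulators rose (TFAM, GABPB1 and TFB2M) and 1 fell (TFB1M). At 24 h relative to 6 h, 4 regulators fell (TFAM, PPRC1, GABPB1 and TWNK) and 0 rose.

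In a list of the tricarboxylic acid cycle and of pyruvate dehydrogenase, which feeds it, 3 of 16 kept genes fell at 1 h and 0 rose. In this list 1 (SUCLG2) fell at 6 h, and calls went both ways between the HGF times. At 6 h relative to 1 h, 3 rose (SUCLA2, DLD and DLAT) and 1 fell (IDH3G). At 24 h relative to 6 h, 2 rose (SUCLG2 and SUCLG1) and 1 fell (DLAT). DLAT is a subunit of pyruvate dehydrogenase and not an enzyme of the cycle itself. The call of SUCLG2 at 6 h against untreated cells was on 1 of its 3 kept probe sets, 212459_x_at (-0.61, limma adjusted p = 0.0495). Leaving out 1 array at a time gave differences from -0.88 to -0.35. SUCLA2, a subunit of succinyl-CoA ligase, had 7.28 and 7.38 at 1 h, against 8.14 and 8.44 in untreated cells (-0.96, limma adjusted p = 0.00933), and SUCLG2 (-0.89 on 212459_x_at, adjusted p = 0.0217) and DLD (-0.58, adjusted p = 0.0483) were also called lower. Of 19 kept genes of mitochondrial import and carriers, 2 rose at 6 h, TIMM17A of the inner membrane translocase (0.84 on 201821_s_at, adjusted p = 0.0178) and TOMM40, the pore of the outer membrane (0.74, adjusted p = 0.0196), and 6 fell at 24 h relative to 6 h. Each of the 2 calls at 6 h was made in 6 of the 10 fits without 1 array. At 6 h relative to 1 h, 3 of these genes rose and 0 fell. TIMM8A is among both these 3 and the 6 that fell at 24 h. Its probe set was kept only through the 6 h arrays (7.66 and 7.98), with at most 7.30 on the others. In none of these lists was a gene called at 24 h or in transduced cells against untreated cells.

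Other large assemblies of the cell were set beside the chain by the same calls, with the shares of all kept probe sets given above. At 1 h, 1 probe set of the mitochondrial ribosomal proteins was called higher and 2 lower, and 0 of the proteasome. Of 52 kept probe sets of mitochondrial ribosomal proteins, 3 were called higher and 0 lower at 6 h (median over genes 0.16, against 3.90% and 2.33% of all kept probe sets), and 0 higher and 10 lower at 24 h relative to 6 h (median -0.22, against 6.96% and 12.6%). Of 46 of the proteasome, 1 was higher at 6 h (median 0.25) and 10 were lower at 24 h relative to 6 h (median -0.23). The cytosolic ribosomal proteins, with 78 kept probe sets, had 0 called in any of the 7 comparisons. The respiratory chain had medians of 0.01 and 0.04 in the same 2 comparisons. Differences between the assemblies were not tested.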

How the data were processed

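The authors summarized the probe signals of 10 Affymetrix hgu133a arrays and normalized them with RMA and the affy package of Bioconductor (versions not given in the sources used here), so the deposited values are log2 intensities already normalized between arrays. They ran from 2.19 to 14.28, with array medians between 6.81 and 6.88. Precision is limited by the 2 arrays per group, and RMA shrinks differences near background. The study's presence filter had not been applied to the table. In its place the 10137 probe sets highest by their second-highest array were kept, which copies its number and its rule of 2 samples. Gene symbols came from the platform annotation (19065 probe sets with 1 symbol, 1043 with several and 2107 with none, 68 controls apart).

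Tests used limma 3.58.1 in R 4.3.3, with a mean per group over all 10 arrays (5 residual and 5.92 prior degrees of freedom, prior SD 0.144). Benjamini-Hochberg adjustment ran over all kept probe sets within each of 7 comparisons, and a probe set was called at an adjusted p under 0.05. An exact two-sided permutation test of 2 against 2 arrays cannot go below 0.333 and was not used. Medians over genes took the kept probe set with the highest mean. The fit was tested on simulated data for HGF 1 h minus untreated, with 50 probe sets changed at each of several sizes. It called 38% of changes of 0.5 on the log2 scale, 76% of changes of 1 and 96% of changes of 1.5. Of 161 calls, 8 were false. The simulated noise was normal and independent between probe sets, without effects shared by an array, and every change was upward. The real arrays differ from this setting, so these shares are not error rates of the calls reported here. Promoters were read in Python 3.11.15.

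The members and the gene lists were chosen with earlier results of these data known. Named are up to 4 called members each way per comparison and complex, the 2 largest differences where a complex had none, subunits with close copies, and up to 4 called genes each way per list. Alternatives were no filter, a filter by the mean, a stricter filter of 7000 probe sets, median centring, cyclic loess, gene means, the replicate number as a block, each array left out, other estimates of the spread, joint adjustment over 4 comparisons and unadjusted p-values. The Illumina arrays of the same RNA were not analysed here.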

Additional observations from a re-analysis of the deposited data

Results flagged for a closer look

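Direct tests between HGF times made 9 calls on 7 probe sets (4.30% of member probe sets for 6 h minus 1 h and 5.38% for 24 h minus 6 h, against 18.3% and 19.5% of all kept probe sets). Both shares of all kept probe sets fell when any array of the compared groups was left out. No untreated cells were matched in time, so a change in the effect of HGF and a change with time in culture cannot be told apart. At 6 h minus 1 h the probe sets were NDUFA5 (0.99), NDUFAF4 (0.75), NDUFS3 (-0.43) and NDUFB5 (-0.41). At 24 h minus 6 h they were NDUFB5 (0.39), ATP5MC3 (-0.41 on 207508_at), NDUFB2 (-0.44 on 218200_s_at and -0.56 on 218201_at) and NDUFAF4 (-0.83). All values are log2 differences called by limma, and each of these calls was lost without moderation of the spread. Of these calls that of NDUFA5 alone held in each fit without 1 array.

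Among the 7 called probe sets and that of SDHD, there were 4 in which the arrays of transduced and of HGF-treated cells lay on opposite sides of both untreated arrays at 1 or more HGF times, and in none of them was the difference between the 2 treatments tested. Over all members this held for 16 of 93 probe sets (17.2%), against 19.4% of all kept probe sets. NDUFA5 was at 0.52 in transduced cells and at -1.22 and -0.24 after 1 and 6 h with HGF. SDHD was at 0.72 in transduced cells and at -0.28 after 1 h. NDUFAF4 was at 0.22 in transduced cells and at -0.23 after 24 h. NDUFB2 on 218200_s_at was at -0.10 in transduced cells and at 0.11 and 0.21 after 1 and 6 h.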

How the results depend on the processing

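Of 146 single differences recomputed (those called, the largest uncalled ones of each complex, and called genes of the other lists), 6 changed sign, none of them called. NDUFAF3 was at 0.03 under cyclic loess for 24 h minus 1 h and COX4I1 (213758_at) at 0 with gene means at 6 h. With single arrays left out, NDUFAF3 ranged from -0.02 to 0.27 at 1 h and from -0.18 to 0.11 for 24 h minus 1 h, NDUFAF4 from -0.38 to 0.08 and from -0.31 to 0.15, and SDHD at 6 h from -0.11 to 0.01. Keeping probe sets by the mean changed no count of calls. ATP5MC3 lost its call for 24 h minus 6 h with no filter (adjusted p = 0.0626), median centring (0.055), gene means (0.0518) and the spread of the compared groups (0.0503), and without moderation (0.0614). With no filter, calls numbered 0 lower for 6 h minus 1 h, 0 higher for 24 h minus 6 h and 1 higher for 24 h minus 1 h. With the stricter filter, which removed NDUFA5 and NDUFAF4 from the test, they numbered 0 lower at 1 h, 1 lower at 6 h (NDUFB5), 0 higher for 6 h minus 1 h and 2 higher for 24 h minus 6 h. Median centring gave 1 lower for 6 h minus 1 h and 0 higher for 24 h minus 6 h. The 4 lower for 24 h minus 6 h became 3 with no filter, the stricter filter, median centring and the spread of the compared groups. Cyclic loess gave 1 lower for 6 h minus 1 h and 2 higher for 24 h minus 6 h (COX7A2L with NDUFB5). Gene means gave 1 lower at 6 h, 2 higher and 2 lower for 24 h minus 6 h and 1 higher for 24 h minus 1 h. With the replicate block 1 was higher at 6 h (NDUFAF4) and 2 were higher for 24 h minus 6 h. Deviations of arrays with the same number correlated between -0.14 and 0.461, so the numbers were not taken as pairs, and the block changed no other count.

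The spread of the compared groups gave 2 higher and 1 lower at 6 h and 1 higher for 24 h minus 1 h. The trended, robust prior gave 1 higher and 1 lower at 6 h, 4 lower for 6 h minus 1 h and 2 higher for 24 h minus 6 h. Without moderation 0 were higher and 0 lower at 1 h, 1 higher and 0 lower for 6 h minus 1 h, and 0 higher and 1 lower for 24 h minus 6 h. Every member call of the fit reported above was lost in this setting, so the probe sets it counted were others. Joint adjustment over 4 comparisons gave 1 higher in transduced cells (SDHD). Unadjusted p-values gave 6 higher and 3 lower at 1 h, 5 and 2 at 6 h, 1 and 0 at 24 h, 4 and 1 in transduced cells, 3 and 10 for 6 h minus 1 h, 3 and 6 for 24 h minus 6 h and 2 and 6 for 24 h minus 1 h. Where no cause is given above, the cause was not tested.

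Leaving out each array in turn, with a lone array assumed to vary like the others, gave 0 to 1 higher and 0 to 1 lower at 1 h and at 6 h, 1 to 2 higher and 0 to 4 lower for 6 h minus 1 h, 0 to 2 higher and 0 to 4 lower for 24 h minus 6 h and 0 to 1 higher for 24 h minus 1 h. The median over member genes ranged from 0.01 to 0.18 at 1 h, from -0.15 to 0.02 for 6 h minus 1 h, from -0.02 to 0.04 for 24 h minus 6 h and from -0.12 to 0.01 for 24 h minus 1 h.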

Other observations

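The members outside the tests are given as values. NDUFB2-AS1, the antisense RNA of NDUFB2, had log2 values of 6.70 and 6.55 after 1 h with HGF, against 6.28 and 6.03 in untreated cells. The pseudogene ATP5MC2P1 had 6.63 and 6.13, against 6.21 and 6.06. The assembly factors NDUFAF5 and NDUFAF7 ranged from 5.72 to 6.19 and from 4.78 to 5.40 over all arrays.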
